A study of Homo sapiens with 12 samples.

Results

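The 9 genes described here handle glutamine and aspartate: the amino acid transporters SLC1A5, SLC38A2 and SLC25A12, the glutaminase GLS2, the glutamine synthetase GLUL, the glutamate dehydrogenase GLUD1, the transaminases GOT1 and GOT2, and the asparagine synthetase ASNS. They were chosen by name from the 59098 genes of the RefSeq table (GRCh38.p14) on chromosomes 1 to 22 and X. Each gene was followed through the peaks of open chromatin that overlapped its span extended by 5 kb on both sides, which is called its window. ATAC-seq, in which a transposase cuts and tags accessible DNA, had been run on MIAPaCa2, an established cell line from a human pancreatic ductal adenocarcinoma. The parental line and a derivative with acquired resistance to sodium oxamate, which inhibits lactate dehydrogenase A, each received oxamate or phosphate-buffered saline. The resistant cells were polyclonal populations that had survived prolonged culture in oxamate, so the phenotype and the long exposure to the drug cannot be told apart. The titles gave 4 groups of 3 libraries (parental untreated, parental treated, resistant untreated and resistant treated), and every group shared the same cell line.

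The lists held 46401 to 63259 peaks per library and covered 13.8 to 33.7 Mb. The number of reads is not in the lists, and a relative depth recovered from them ran from 1 for the shallowest library to 2.77. It was 1.66 to 2.77 in treated parental and 1 to 1.13 in treated resistant libraries, without overlap. In untreated libraries it was 1.33 to 1.77 in parental and 1.01 to 1.85 in resistant cells. The part of depth in the differences below was not tested. Parental libraries covered 13.8 to 25.5 Mb and resistant libraries 21.3 to 33.7 Mb. The narrowest peak of a list measured 67 to 87 bp in the 6 parental libraries and 94 to 124 bp in the 6 resistant libraries, with no overlap between the phenotypes. Nothing in the labels says whether libraries of a group came from separate cultures, so the p-values measure only the spread between these libraries. The start of the epithelial keratin gene KRT8 lay in a region called in 12 libraries and the window of KRT18 had covered bases in 12. The leukocyte gene PTPRC had no peak over its start and covered bases in 2 libraries, and CD3E had 0 covered bases in all 12. Among endothelial genes, the windows of PECAM1 and CDH5 had 198 to 1923 and 1281 to 2613 covered bases, in all 12 libraries. CDKN2A and MTAP, known to be deleted in this line, had 0 covered bases in 12 libraries.

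Glutamine enters cells through carriers such as SLC1A5 and SLC38A2 and is split by glutaminases into glutamate and ammonia, a reaction that GLUL runs in reverse. Glutamate gives its nitrogen to oxaloacetate through the transaminases GOT1, in the cytosol, and GOT2, in mitochondria, which makes aspartate, or is turned into alpha-ketoglutarate by GLUD1. SLC25A12 carries aspartate out of mitochondria for the malate-aspartate shuttle, a route that regenerates cytosolic NAD when lactate dehydrogenase is not used, and ASNS makes asparagine from aspartate and glutamine. Pancreatic cancer cells are known to draw on the GOT enzymes for redox balance.

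All 9 genes lie on the minus strand. The 250 bases before the 5'-most listed start are shown for 5 of them, because the starts of GLUL and GLS2 were not covered in every library, a further SLC1A5 start was covered mainly in resistant libraries, and GOT1 and ASNS held the amino acid response element. The sequences are from RefSeq (GRCh38.p14, minus strand, 5' to 3'): GLUL chr1:182391791-182392040, GLS2 chr12:56488162-56488411, SLC1A5 chr19:46788595-46788844, GOT1 chr10:99430625-99430874 and ASNS chr7:97872409-97872658. Capitals mark the GC box (GGGCGG or CCGCCC), the CCAAT box (CCAAT or ATTGG) and, in GOT1 and ASNS, the amino acid response element (TGATGNAA on either strand). In GOT1 that element directly follows a CCAAT box.
GLUL: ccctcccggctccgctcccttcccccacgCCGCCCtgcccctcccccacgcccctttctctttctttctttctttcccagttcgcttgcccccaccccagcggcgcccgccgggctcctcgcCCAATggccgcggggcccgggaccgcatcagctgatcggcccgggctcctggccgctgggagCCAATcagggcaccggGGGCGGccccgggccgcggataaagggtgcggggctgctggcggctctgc
GLS2: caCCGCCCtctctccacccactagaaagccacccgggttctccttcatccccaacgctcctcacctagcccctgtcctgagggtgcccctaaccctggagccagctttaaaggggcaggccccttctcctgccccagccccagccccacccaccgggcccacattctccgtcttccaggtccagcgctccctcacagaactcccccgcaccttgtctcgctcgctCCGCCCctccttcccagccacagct
SLC1A5: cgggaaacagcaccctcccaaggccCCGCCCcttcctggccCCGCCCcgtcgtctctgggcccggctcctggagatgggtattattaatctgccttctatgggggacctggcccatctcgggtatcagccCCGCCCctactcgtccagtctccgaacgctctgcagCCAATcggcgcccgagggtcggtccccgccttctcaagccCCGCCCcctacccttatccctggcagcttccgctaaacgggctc
GOT1: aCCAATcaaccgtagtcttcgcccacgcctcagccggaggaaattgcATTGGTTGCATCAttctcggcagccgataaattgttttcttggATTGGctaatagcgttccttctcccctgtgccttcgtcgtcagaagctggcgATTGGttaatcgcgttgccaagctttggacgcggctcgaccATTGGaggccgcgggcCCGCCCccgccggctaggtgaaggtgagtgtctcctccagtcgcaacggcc
ASNS: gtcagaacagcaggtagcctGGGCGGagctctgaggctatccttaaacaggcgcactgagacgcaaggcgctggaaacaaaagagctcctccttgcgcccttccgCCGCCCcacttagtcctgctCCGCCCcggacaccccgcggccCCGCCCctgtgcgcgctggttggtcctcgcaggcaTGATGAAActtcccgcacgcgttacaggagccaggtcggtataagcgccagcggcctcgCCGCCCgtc

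The response element, which binds ATF4 when amino acids run short, was matched as TTGCATCA in GOT1 at 198 to 191 bases before the start and as TGATGAAA in ASNS at 68 to 61 bases before it. Of the 22156 promoters of protein-coding genes (250 bases before to 50 after a listed start), 2.70% held TGATGNAA on either strand. Both elements lay under a peak in all 12 libraries. A further match, TGATGCAA, stood 97 to 90 bases before the most downstream of the 3 listed SLC1A5 starts. It was covered in 2 of 3 untreated parental, 0 of 3 treated parental, 3 of 3 untreated resistant and 3 of 3 treated resistant libraries. The E box CACGTG, bound by MYC and its partners and held by 8.34% of promoters, was in none of the 9 promoters at the 5'-most start. It was found 50 to 45 bases before the middle SLC1A5 start, where 7 libraries had a peak over it. The NRF1 core GCGCATGC, held by 3.74% of promoters, was in GLS2 alone, 41 to 48 bases after its start. The GC box was in 9 of the 9 promoters against 56.3% of all, and the CCAAT box in those of GLUL, GOT1 and SLC1A5 against 34.6%. GC content of the 250 bases before the 5'-most start was 58% in GOT1, 62.8% in GOT2, 66% in ASNS, 66.4% in GLS2 and 66.8% in SLC1A5. It was 73.6% in SLC38A2, 74.8% in GLUL, 77.2% in SLC25A12 and 80.4% in GLUD1. The median over all promoters was 62%, and GOT1 alone was below it. The GC box count was not compared with promoters of like GC content. A match is a stretch of letters in these windows, and binding was not measured.

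Peaks of the 12 lists that overlapped were merged into 178040 regions, of which 59 lay in the 9 windows. Of these 59, 35 regions (59.3%) were called in 1 library and 11 (18.6%) in all 12, against 59.5% and 13.6% of all regions. Starts were mostly open in every group. For 7 of the 9 members a listed start lay in a region called in 12 libraries, against 57.4% of the 15813 protein-coding genes with a listed start. The exceptions were GLUL and GLS2. The base at the GLS2 start lay under a peak in 1 library, treated parental replicate 3, where the peak spanned 200 bp at 3.12-fold over local background.

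Peaks were ranked within their own list by the deposited -log10 q, with the rank given as a percentage of the list and the strongest peaks near 0. The ASNS start region (chr7:97871913-97872736) held peaks at 9.06- to 14.5-fold over local background, with ranks of 0.595% to 5.00%. The GOT1 start region (chr10:99430323-99431405), within 1 kb of an end of the neighbouring GOT1-DT, ranked between 0.870% and 2.84% at 8.02- to 10.6-fold. The GOT2 start region (chr16:58733067-58734654) ranked between 4.01% and 18.4%. The start region of SLC25A12 (chr2:171893930-171894713) reached 6.60- to 15.6-fold. That of SLC1A5 (chr19:46788030-46788831) reached 5.70- to 8.08-fold, and that of SLC38A2 (chr12:46371238-46374158), within 1 kb of an end of SLC38A2-AS1, ranked between 5.16% and 46.5% by its highest peak. The GLUD1 start region (chr10:87093271-87095935), within 1 kb of an end of the neighbouring SHLD2, spanned 2665 bp and ranked between 9.83% and 17.3% by its highest peak. The highest peaks of the GLUL start region ranked between 52.9% and 97.7% in its 9 libraries, and the single GLS2 start peak at 86.5%.

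**Figure D1:**
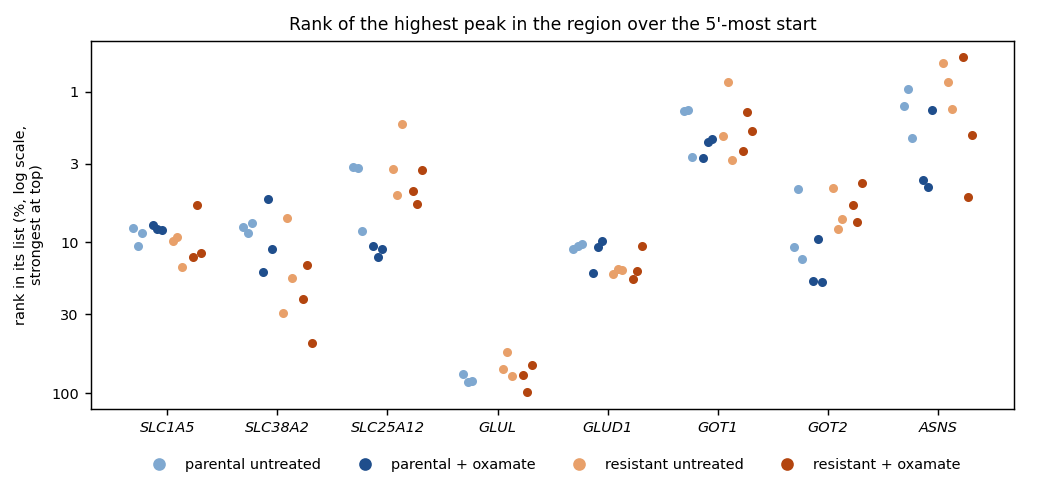
Rank within its own list (percent, log axis, strongest at the top) of the highest peak in the region over the 5'-most listed start of 8 members, 1 point per library, coloured by group. GOT1 and ASNS lie at 5.00% or better in all 12 libraries, GLUL at 52.9% or worse in the 9 libraries that have a peak there, and GLS2 is left out because 1 library alone had a peak over its start.

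Ranks allow a comparison within the 11 member regions called in all 12 libraries. In parental cells 2 of the 11 regions ranked lower in all 3 treated than in all 3 untreated libraries and 0 ranked higher, against 19.2% of 24148 such regions whose groups did not overlap. Lists differed in length (46401 to 63259 peaks), so each count was repeated with an approximate position in the list. This was the rank percentage, taken over all contigs, times the number of peaks on chromosomes 1 to 22 and X. It is therefore slightly below the true position. It gave 1 region (16.5% of all). The 2 were the SLC25A12 start and a region at the 3' end of SLC38A2, and the second alone was left by position. The SLC25A12 start peak ranked at 3.15%, 3.19% and 8.46% in untreated parental libraries and at 10.6%, 12.5% and 11.0% in treated parental libraries. It ranked at 3.25%, 4.85% and 1.64% in untreated resistant and at 4.56%, 5.60% and 3.33% in treated resistant libraries. By this approximate position the SLC25A12 peak stood at 1885, 1916 and 5201 in untreated and at 4855, 7793 and 6058 in treated parental libraries, which overlap. It stood at 867 to 2688 in the 6 resistant libraries. Under oxamate 2 regions, the starts of SLC25A12 and GOT2, ranked higher in resistant than in parental cells without overlap, against 24.9% of all such regions (the same 2 by position, against 30.6%). The GOT2 start peak stood at 18.1%, 9.45% and 18.4% in treated parental and at 5.64%, 7.29% and 4.01% in treated resistant libraries. Without oxamate 2 regions ranked lower in resistant cells (GLUD1 start and the region near SPRYD4 in the GLS2 window, 21.1% of all regions), and by position 1 more ranked higher (22.3% of all). In resistant cells 1 region ranked higher with oxamate (8.77% of all regions), and 2 by position (9.89%). In percent of the list these shares were near or below those of all regions, and the rank comparison was chosen after the ranks had been seen.

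Covered bases, the bases of a window that lie under any peak of a library, were compared next. Differences were fitted with limma on log2(covered bases + 100), which understates the change of windows with little covered sequence, over the 15460 protein-coding genes that averaged at least 200 covered bases. All 9 members passed this filter. GLUL did so at a mean of 332 bases over the 12 libraries, with 187 in parental and 478 in resistant libraries. It thus passed only through the resistant libraries, where it is high, which limits its comparisons of phenotypes below. P-values were adjusted over all 15460 genes by the Benjamini-Hochberg procedure. Most genes moved in the same directions. Of the 15460, 14492 were lower with oxamate in parental cells. Between phenotypes, 14800 were higher in resistant cells with oxamate and 12970 without it. Where groups of a gene below do not overlap, the share of all genes that separate in this way was not counted.

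Among transporters, SLC1A5, the main importer of glutamine in many tumours, showed the clearest difference between groups. Its window held 1438, 1623 and 1105 covered bases in untreated parental libraries and 613, 722 and 824 in treated parental libraries. It held 2722, 1528 and 1648 in untreated resistant and 2373, 1034 and 1476 in treated resistant libraries. The treated parental libraries were the 3 lowest of the 12 and overlapped with no other group. Under oxamate, covered bases were higher in resistant (1628 ± 682, SD, n = 3) than in parental cells (720 ± 106, n = 3), a log2 difference of 1.01 ± 0.29 (SE, limma, adjusted p = 0.0193), or 2.01-fold on the fitted scale. Over both treatments the difference was 0.73 ± 0.20 (limma, adjusted p = 0.0187). Treated against untreated parental cells gave -0.85 ± 0.29, which missed the threshold (limma, adjusted p = 0.0657). The call under oxamate was lost without treated parental replicate 1, treated resistant replicate 1 or treated resistant replicate 3 (limma, adjusted p from 0.0525 to 0.0839), and the call over both treatments stood without each of the 12 libraries in turn.

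SLC38A2, a sodium-coupled glutamine importer induced by amino acid shortage, had 3799, 3435 and 2546 covered bases in untreated parental and 866, 3016 and 1828 in treated parental libraries. It had 5123, 2928 and 4217 in untreated resistant and 3556, 2308 and 5297 in treated resistant libraries. The groups overlapped. Most of these bases lay in 2 wide regions called in all 12 libraries, 1 over the start and 1 of 3371 bp over the 3' end (chr12:46356828-46360198). The log2 difference of resistant minus parental cells under oxamate was 1.01 ± 0.40 (limma, adjusted p = 0.0579).

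SLC25A12, which exchanges mitochondrial aspartate for glutamate, held 747 to 1227 covered bases in parental and 648 to 983 in resistant libraries. Its log2 difference between phenotypes over both treatments was -0.04 (95% interval -0.34 to 0.25), and none of its 6 comparisons passed the threshold. A region within the gene, chr2:171811287-171811617, was called in 10 libraries, which left out 2 of the treated parental ones.

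GLUL, the enzyme that makes glutamine from glutamate and ammonia, had the largest log2 differences between phenotypes among the 9 members. Its window held 305, 158 and 357 covered bases in untreated parental, 0, 302 and 0 in treated parental, 679, 594 and 464 in untreated resistant and 261, 334 and 533 in treated resistant libraries. The 302 bases in treated parental replicate 2 came from 2 regions called in that library alone, of 120 and 182 bp. The region of 182 bp lay close to the start, at -518 to -337 bp from it, and its peak stood at 3.19-fold. The start region's peaks in untreated parental libraries stood at 3.25- to 3.47-fold. Covered bases were higher in resistant (478 ± 158, SD, n = 6) than in parental libraries (187 ± 159, n = 6), by 1.22 ± 0.38 on the log2 scale (SE, limma, adjusted p = 0.0269). Under oxamate the difference was 1.54 ± 0.53 (limma, adjusted p = 0.0380), or 2.91-fold with the pseudocount of 100 bp. Since 2 of the 3 treated parental values were 0, the pseudocount sets this size: with 20 bp it was 7.53-fold (limma, adjusted p = 0.0322), and with 500 bp 1.48-fold, where the call was lost (limma, adjusted p = 0.0553). Oxamate gave -1.19 ± 0.53 in parental cells, short of the threshold (limma, adjusted p = 0.127). The call over both treatments was lost without untreated parental replicate 2, treated parental replicate 1, untreated resistant replicate 1 or treated resistant replicate 3 (limma, adjusted p from 0.0511 to 0.0679). The call under oxamate was lost without treated parental replicate 1 or 3, untreated resistant replicate 3 or any one of the treated resistant libraries (limma, adjusted p from 0.0506 to 0.130).

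GLS2, a mitochondrial glutaminase, had 682, 413 and 346 covered bases in untreated parental, 212, 160 and 432 in treated parental, 670, 618 and 571 in untreated resistant and 676, 529 and 494 in treated resistant libraries. All treated parental values were below those of both resistant groups. The difference between phenotypes was 0.92 ± 0.32 under oxamate (limma, adjusted p = 0.0391) and 0.63 ± 0.23 over both treatments (limma, adjusted p = 0.0436). Both calls were near the threshold, and the first was lost without treated parental replicate 1 or 2, untreated resistant replicate 3 or any one of the treated resistant libraries (limma, adjusted p from 0.0519 to 0.133). The second was lost without any one library other than untreated parental replicate 1, treated parental replicate 3 or treated resistant replicate 2 (limma, adjusted p from 0.0625 to 0.102). The bases came mainly from a region outside the gene, chr12:56468140-56468944, at 19217 to 20021 bp downstream of the GLS2 start and within 1 kb of an end of the neighbouring gene SPRYD4. This region was called in 12 libraries with 160 to 676 bases, and the other 3 regions of the window were called in 1 library each.

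GLUD1, which links glutamate to the citric acid cycle, had 1962, 1739 and 1178 covered bases in untreated parental, 1084, 1537 and 942 in treated parental, 2859, 2636 and 1994 in untreated resistant and 2541, 1517 and 1346 in treated resistant libraries. The untreated resistant libraries were all above the 6 parental ones, while the treated resistant libraries overlapped with them. Over both treatments the difference was 0.57 ± 0.19 (SE, limma, adjusted p = 0.0346), a call lost without untreated parental replicate 3, treated parental replicate 1 or 3, untreated resistant replicate 1 or 2, or treated resistant replicate 1 (limma, adjusted p from 0.0556 to 0.0851). A second region inside the gene (chr10:87054656-87055457) was called in 2 of 6 parental and 5 of 6 resistant libraries, a split that gave p = 0.242 in a two-sided Fisher's exact test.

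GOT1 held 748 to 1678 covered bases in parental and 833 to 1850 in resistant libraries. Its treated minus untreated difference was -0.67 ± 0.27 in parental and 0.28 ± 0.27 in resistant cells. The difference between these responses was 0.95 ± 0.38 (limma, unadjusted p = 0.0293), the only one of the 9 under 0.05 before adjustment, and was lost after it (adjusted p = 0.328). GOT2 held 801 to 2175 covered bases in parental and 862 to 1577 in resistant libraries, and the difference of phenotypes over both treatments was 0.03 (95% interval -0.37 to 0.43). ASNS held 928 to 1388 in parental and 1127 to 1584 in resistant libraries. Under oxamate the ASNS values were 961, 984 and 1078 in parental and 1347, 1325 and 1468 in resistant libraries, without overlap, yet the log2 difference of 0.42 ± 0.17 did not pass (limma, adjusted p = 0.0682). A second ASNS region called in 12 libraries (chr7:97928111-97928837) lay at the upstream end of the gene span, at -56429 to -55703 bp from the 5'-most start of the promoter table.

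**Figure D2:**
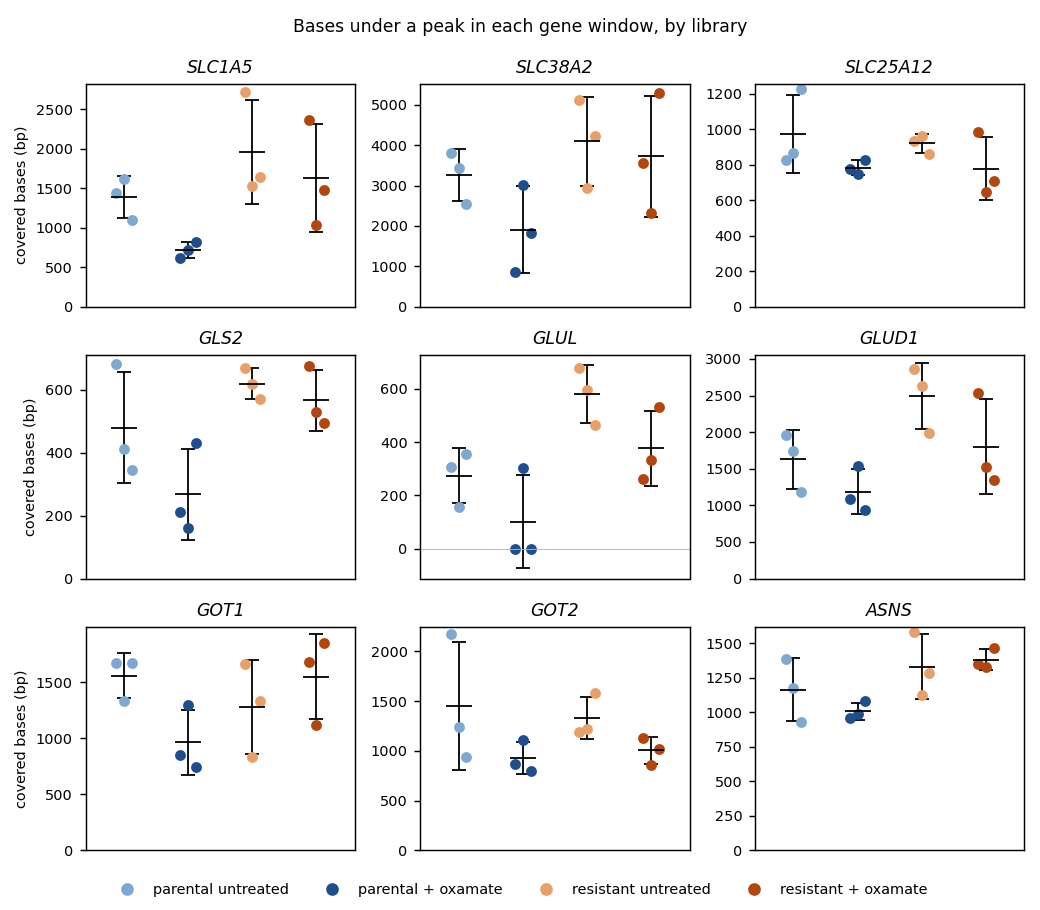
Bases under a peak (bp, linear axis) in the window of each of the 9 genes, 1 point per library, with the mean and SD of 3 libraries per group as a black bar. Treated parental libraries are lowest in SLC1A5 (613 to 824 bp) and 2 of them are at 0 in GLUL.

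Taken over the 9 members, 0 passed the threshold for oxamate in parental cells against 12.2% of all 15460 genes (limma). Before adjustment, 4 members and 5825 genes were under 0.05 by limma. The exact permutation test called 0. In this and every other comparison of 3 with 3 libraries its smallest p is 0.1, so it could call no gene. All 9 differences were below 0, as were 93.7% of all genes, with a median of -0.67 against -0.44 for all genes. For oxamate in resistant cells limma called 0 members and 0 genes (0%), with 0 members and 294 genes under 0.05 unadjusted and 0 by the exact permutation test. Between untreated phenotypes limma called 0 members against 0.00647% of all genes, with 1 member and 1696 genes under 0.05 unadjusted and 0 by the exact permutation test. Between treated phenotypes 3 members were higher in resistant cells and 0 lower, against 42.1% of all genes called. Over both treatments 4 were higher and 0 lower, against 40.2%. The difference between both oxamate responses passed in 0 members and 0 genes (0%), with 1 member and 2138 genes under 0.05 unadjusted by limma. Leaving out 1 library moved the 3 members to 0 (without treated parental replicate 1, treated resistant replicate 1 or 3) or 1 (without untreated resistant replicate 3). It moved the 4 members to 1 (without treated parental replicate 1 or untreated resistant replicate 1) or 2 (without untreated parental replicate 2 or 3, or treated resistant replicate 1 or 3). It moved the 0 members of the parental oxamate response to 2 (without untreated parental replicate 3 or treated parental replicate 2) or 1 (without treated resistant replicate 1 or 2). The members' shares were near or below those of all genes.

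The total of covered bases moved with the phenotype, so the comparison was repeated with each library scaled to its total. Scaling shifted the median log2 difference of all genes over both treatments from 0.41 to -0.0029 and in the parental oxamate response from -0.44 to -0.01. After scaling, 0 of the 9 members passed in any of the 6 comparisons (limma), in which 2.05%, 0%, 0.00648%, 8.75%, 6.8% and 0.0259% of 15422 genes did, in the order used above. Before adjustment, limma gave 1, 0, 1, 3, 4 and 0 members under 0.05. Among the 15422 genes it gave 2659, 346, 1108, 4154, 4186 and 1414. The 4 members called over both treatments kept a positive difference, at 0.31 for SLC1A5, 0.28 for GLS2, 1.01 for GLUL and 0.14 for GLUD1. ASNS, GOT1 and GOT2 turned from 0.30, 0.16 and 0.03 to -0.12, -0.25 and -0.38. In the parental oxamate response GLUD1, SLC25A12 and ASNS turned from -0.42, -0.26 and -0.17 to 0.03, 0.17 and 0.27.

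**Figure D3:**
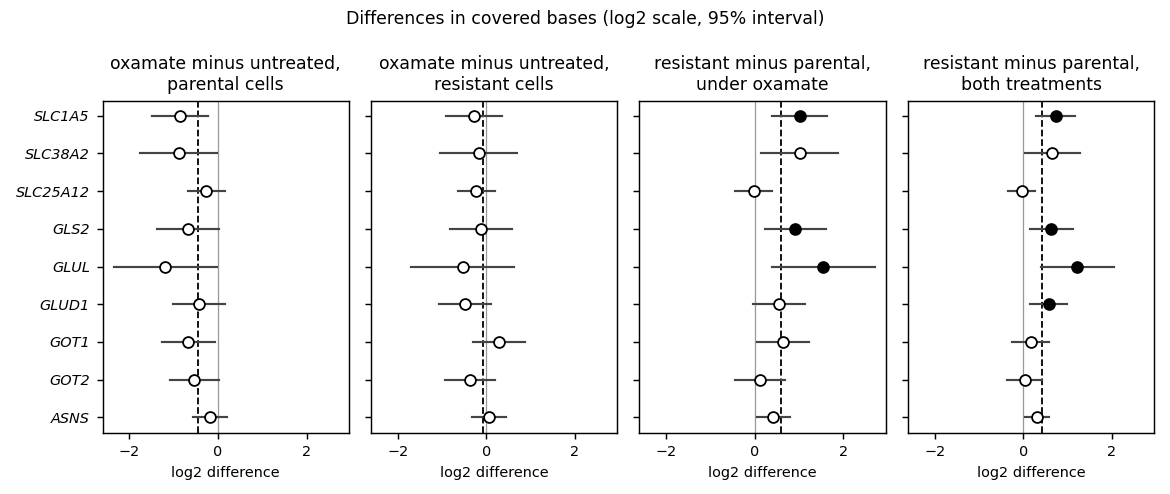
Log2 difference of covered bases with its 95% interval for the 9 genes in 4 comparisons (one panel each), with filled points for those past an adjusted p of 0.05 and the median of all 15460 genes as a dashed line (-0.44, -0.08, 0.59 and 0.41 from left to right). Filled points are GLS2, GLUL and SLC1A5 under oxamate and these with GLUD1 over both treatments, and after scaling to the library total none is filled and ASNS, GOT1 and GOT2 change sign in the last panel.

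The position of the peaks showed where the groups parted. The GLUL start region (chr1:182391315-182391859) was called in 3 of 3 untreated parental, 0 of 3 treated parental, 3 of 3 untreated resistant and 3 of 3 treated resistant libraries. They covered 188, 158 and 357 bases in untreated parental, 488, 476 and 464 in untreated resistant and 248, 321 and 533 in treated resistant libraries. They were weak, at 3.16- to 4.45-fold, and with a -log10 q of at least 3 the region was left in 2 resistant libraries, 1 untreated and 1 treated. A second GLUL region upstream of the gene (chr1:182396600-182396980) showed the same 3, 0, 3 and 3 libraries. It straddled the edge of the window, and a peak reached inside in 1 untreated parental, 0 treated parental, 2 untreated resistant and 2 treated resistant libraries.

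Each comparison was then read for all-or-none regions, those that had a peak in 3 of 3 libraries of one group and 0 of 3 of the other. In parental cells 0 member regions were gained and 2 lost with oxamate of 16 called in at least 3 libraries, both at GLUL, where 4.29% of all regions had such a split. With the straddling GLUL region left out, 1 was lost. In resistant cells there were 0 of 19 (1.1% of all regions), and between untreated phenotypes 0 of 19 (2.69%). Between treated phenotypes 4 regions of 19 were all-or-none in favour of resistant cells (3 of 3 libraries against 0 of 3) and 1 in favour of parental cells, against 7.61% of all regions. The 4 were both GLUL regions, chr10:99405919-99406487 within GOT1 and chr19:46784586-46785053 within SLC1A5, or 3 without the straddling GLUL region. Regions called in exactly 9 libraries and missing from the 3 treated parental ones, a pattern chosen after these regions were seen, made up 2 of 3 in the windows, both at GLUL, and 16.4% of 2805 in the whole set.

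The SLC1A5 region lies 3541 to 4008 bp downstream of the 5'-most start and covers the most downstream listed start of the gene. It held 0, 100 and 105 bases in untreated parental and 0, 0 and 0 in treated parental libraries. In resistant libraries it held 386, 391 and 423 bases without and 314, 247 and 440 with oxamate. Every resistant value was above every parental one. With a -log10 q of at least 3 the region was left in all 6 resistant libraries and in 0 of the 6 parental ones. That threshold was uneven between phenotypes, as it kept 40.6% to 60.4% of all peaks in parental and 58.0% to 68.7% in resistant libraries. A further region of SLC1A5 (chr19:46786100-46787559), spanning the middle start, whose own base lay under a peak in 3 libraries, was called in all 12 libraries with 866, 759 and 390 bases in untreated and 92, 415 and 397 in treated parental libraries. It had 1209, 661 and 610 bases in untreated and 813, 520 and 548 in treated resistant libraries, so the treated resistant values were above the treated parental ones without overlap. For both SLC1A5 regions, the share of all regions that separate in covered bases in this way was not counted. The GOT1 region was fainter and was called in 1 untreated parental, 1 untreated resistant and 3 treated resistant libraries. With the stricter q it was left in 1 untreated parental and 1 untreated resistant library. Downstream of GOT1, chr10:99392431-99393110 was called in 3 of 3 untreated and 1 of 3 treated parental and in 2 of 3 untreated and 3 of 3 treated resistant libraries.

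The region open in parental cells lies within SLC25A12 (chr2:171866154-171866810), 27434 to 28090 bp downstream of the start. It was called in 2 of 3 untreated and 3 of 3 treated parental libraries and in 0 of 6 resistant ones. Its peaks covered 0, 304 and 315 bases in untreated and 128, 107 and 221 in treated parental libraries, at 3.17- to 3.51-fold. The region joins peaks that overlap only in part. Those of untreated parental replicates 2 (chr2:171866154-171866457) and 3 (chr2:171866496-171866810) shared no base. When peaks had to cover 50% of the region, it was left in 0 libraries of every group. The -log10 q of its peaks is given next. It lay between 1.18 and 1.80, so none was left at the stricter q. Fisher's exact test (two-sided, 6 libraries of each phenotype), run on the 9507 regions called in 5 to 7 libraries, gave this region p = 0.0152 (adjusted p = 0.133). The unadjusted p was under 0.05 in 0 member regions when any one of the treated parental libraries was left out. Of those regions 11.4% were under 0.05 unadjusted (828 more often and 257 less often called in resistant cells) and 0 passed after adjustment. The other 3 member regions in this test, in GLUD1, GOT1 and ASNS, each gave p = 0.242 by the exact test.

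**Figure D4:**
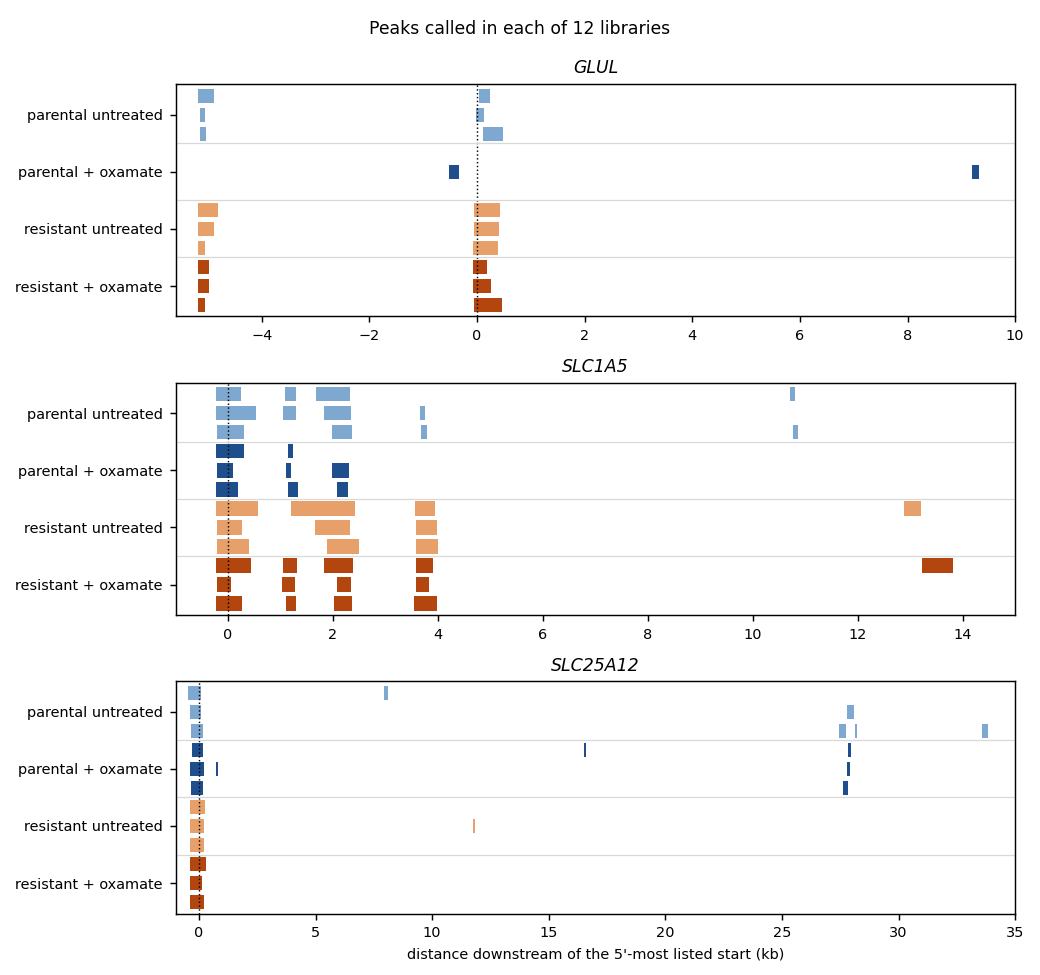
Peaks of each library (1 bar row per library, 3 per group) by distance downstream of the 5'-most listed start (kb, dotted line at 0) for GLUL, SLC1A5 and part of the SLC25A12 window. The GLUL start region has peaks in 9 libraries and none in the 3 treated parental ones, of which replicate 2 has a peak at -518 to -337 bp. The SLC1A5 peaks at 3541 to 4008 bp are in 2 parental and 6 resistant libraries, and the SLC25A12 peaks at 27434 to 28090 bp are in 5 parental and 0 resistant libraries.

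Single start bases at GLUL and SLC1A5 were read next, and they split differently from the regions over them. In the same order of groups, those regions were called in 3, 0, 3 and 3 libraries at GLUL and 2, 0, 3 and 3 at SLC1A5. The GLUL start at position 182391790 lay under a peak in 1 of 3 untreated parental, 0 of 3 treated parental, 3 of 3 untreated resistant and 3 of 3 treated resistant libraries. In untreated parental cells the peaks began downstream of that base in the other 2 libraries. The most downstream SLC1A5 start at position 46784814 was covered in the same numbers of libraries. By the same exact test each gave p = 0.0152 (adjusted p = 0.0578 over 664 listed starts covered in 5 to 7 libraries). Of those 664 starts 26.2% were under 0.05 unadjusted, 172 more often and 2 less often covered in resistant cells, and 0 passed after adjustment. After leaving out untreated parental replicate 1 or 2 both member starts passed after adjustment, with 39.1% and 41.6% of all starts tested, and without replicate 3 of that group 1 did, with 4.97%. At a -log10 q of at least 3, 1 member start was under 0.05 unadjusted and passed after adjustment, with 33.8% of the 849 starts tested. The narrowest peak of a list was wider in every resistant library, as given above, and its part in this result was not tested. This test was added after the members' starts had been seen.

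Other genes that use or carry glutamine, glutamate and aspartate were taken from a list of 40, of which 37 passed the filter. In parental cells 7 of the 37 were lower with oxamate and 0 higher (18.9%, against 12.2% of all genes, limma), with a median of -0.43 against -0.44. Under oxamate 22 were higher in resistant than in parental cells and 0 lower (59.5%, against 42.1% of all genes), with a median of 0.63 against 0.59. Over both treatments 19 were higher and 0 lower (51.4% against 40.2%), with medians of 0.41 for both. Leaving out 1 library gave 2 to 10, 8 to 24 and 9 to 21 calls in these 3 comparisons. The first fell to 2 without untreated parental replicate 1 or 2 and to 4 without treated parental replicate 1. The second fell to 8 without treated parental replicate 1 or treated resistant replicate 3 and to 11 without treated resistant replicate 1. The third fell to 9 to 11 without untreated parental replicate 3, untreated resistant replicate 1 or 3, or treated resistant replicate 1 or 3. After scaling to the library total, 2 of the 37 passed in the parental oxamate response, both lower (2.05% of all genes), and 4 between treated phenotypes, 3 higher and 1 lower (8.75% of all genes).

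The 5 with the largest differences among those called were ASS1, CAD, GMPS, SLC7A5 and SLC1A1. CAD, which starts pyrimidine synthesis from glutamine and aspartate, had 1035 to 1750 covered bases in untreated parental, 351 to 401 in treated parental, 1196 to 1427 in untreated resistant and 901 to 1527 in treated resistant libraries. The treated parental libraries lay apart from the other groups, by -1.71 ± 0.22 from untreated parental cells (limma, adjusted p = 0.00612), and by -1.32 after scaling (limma, adjusted p = 0.00418). GMPS, which uses glutamine to make guanine nucleotides, had 1911 to 2192 bases in untreated and 665 to 880 in treated parental libraries, a difference of -1.28 ± 0.17 (limma, adjusted p = 0.00631, and 0.00676 after scaling). ASS1, which joins aspartate to citrulline, had 153 to 586 bases in treated parental and 1162 to 3060 in treated resistant libraries, a difference of 2.41 ± 0.44 (limma, adjusted p = 0.00400, and 0.0125 after scaling). SLC7A5, which exchanges glutamine for leucine, was 1.23 ± 0.19 higher in treated resistant than in treated parental cells (limma, adjusted p = 0.00216, and 0.0267 after scaling). SLC1A1, an importer of glutamate and aspartate, was 1.12 ± 0.26 higher in the same comparison (limma, adjusted p = 0.00931), a call lost after scaling (0.123). The ASS1 call was lost with peaks at a -log10 q of at least 3, and the ASS1 and GMPS calls were lost with covered bases counted only within 1 kb of gene ends. None of the 37 passed in the difference between both oxamate responses (limma), where 10 of them and 2138 of all 15460 genes were under 0.05 unadjusted.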

How the data were processed

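ATAC-seq peak lists of 12 libraries were analysed, in the 4 groups of 3 that the titles give. The authors aligned reads with Bowtie2 (2.1.0 in the submitters' processing notes), kept uniquely mapped nuclear reads after removing duplicates, and ran MACS2 on paired ends for each library. The lists are in its broad-peak format. The MACS2 version, any control and any blacklist are not given in the sources used here. Each deposited list gives, per peak, the authors' score derived from the q-value, the fold (a ratio) over the local background, and the -log10 of the p-value and q-value. Contig names place the lists on GRCh38, and coordinates are given 1-based. Read counts are not in the lists, so depth is unknown and only relative depth was recovered from background pileup and the narrowest peak.

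Windows were RefSeq gene spans (GRCh38.p14) extended by 5 kb, on chromosomes 1 to 22 and X. Covered bases were tested with limma 3.58.1 in R 4.3.3 (trend and robust, 4 group means in one fit, log2 with a pseudocount of 100 bp, mean of at least 200 bp) and Benjamini-Hochberg adjustment over all genes tested, at a threshold of 0.05. The steps were tested on simulated data. Regions were peaks of all lists merged at an overlap of 1 bp, and presence was compared by two-sided Fisher's exact test (scipy 1.17.1) over regions called in 5 to 7 libraries. Starts, promoters and neighbours came from RefSeq tables, which place no exons or introns, so peaks are given by distance from a start. No genome sequence was used, so peak sequences are not printed.

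The members, the list of 40 pathway genes, the motifs and the tests were chosen with earlier results of these data known. All 9 members are named, with every region of their windows called in at least 6 libraries or in 3 of 3 and 0 of 3 libraries of a comparison. Of the other pathway genes, the 5 called with the largest differences are named. Alternatives changed the scaling, pseudocount, filter, genes tested, peak threshold, number of peaks, window, replicate block, test and libraries. The comparison of ranks (by percentage and by approximate position), the omission of the region at the window edge, the test of start bases and the pattern of exactly 9 libraries were chosen after the members' values had been seen.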

Additional observations from a re-analysis of the deposited data

How the results depend on the processing

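The lists bound what can be seen: reads below the calling threshold leave no peak, absolute depth is unknown, and covered bases were compared between lists whose totals differed between phenotypes. The stricter q (-log10 q of at least 3) kept 40.6% to 47.9% of peaks in treated parental and 64.3% to 68.7% in treated resistant libraries. Groups of 3 cannot pass by exact permutation, where the smallest p is 0.1 (0.005 over both treatments), and that test was not run for the difference between both oxamate responses.

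Of the 612 alternative values for the 27 differences of the 9 members, 516 kept direction and side of the threshold, 54 lost a call, 29 gained one and 12 moved without a call. One turned: SLC25A12 over both treatments was 0.40 with peaks at a -log10 q of at least 3 only (limma, adjusted p = 0.0385), the cause of which was not tested. Members called under oxamate between phenotypes (3) were 0 after scaling, 5 with the stricter q or the same number of top-ranked peaks, 1 within 1 kb of gene ends and 0 by exact permutation, and 0 to 4 without 1 library. Of all genes, the stricter q called 8346, the same number of peaks 7282 and the gene ends 4620, against 6512. Over both treatments (4) members were 0 after scaling, 2 within 1 kb of gene ends, 2 by exact permutation (GLUL and SLC1A5) and 1 to 5 without 1 library. Of all genes, the gene ends called 4596 and exact permutation 3246, against 6212. In the parental oxamate response (0) members were 2 with the stricter q and 2 with the same number of peaks. These settings called 3249 and 1858 of all genes, against 1890. Pathway genes called fell from 7, 22 and 19 to 2, 4 and 1 after scaling.

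Over all genes, the parental oxamate response (1890) gave 316 after scaling, 3249 with the stricter q, 0 by exact permutation and 119 to 3202 without 1 library (174 and 119 without untreated parental replicates 1 and 2, 3202 without replicate 3, 423 without treated parental replicate 1, 1094 without untreated resistant replicate 3 and 1129 without treated resistant replicate 3). The resistant response (0) gave 1 with the stricter q and 0 to 0 without 1 library. Untreated phenotypes (1) gave 0 and 4 with pseudocounts of 20 and 500 bp, 8 without the filter, 15 over all genes of the table, 68 with the stricter q, 36 with the same number of peaks, 2 with a window of 1 kb, 14 within 1 kb of gene ends, 0 by exact permutation and 0 to 3 without 1 library. Treated phenotypes (6512) gave 1349 after scaling, 10124 over all genes, 0 by exact permutation and 2495 to 7886 without 1 library (3249 without treated parental replicate 1, 2495 and 2993 without treated resistant replicates 1 and 3). Both treatments (6212) gave 1048, 9644, 3246 and 3571 to 7620 (3716 without untreated parental replicate 3, 3571 without untreated resistant replicate 1, 3618 and 3850 without treated resistant replicates 1 and 3). The difference between responses (0) gave 4 after scaling, 1 with 20 bp, 6 over all genes, 385 with the stricter q, 10 with the same number of peaks, 79 within 1 kb of gene ends and 0 to 8 without 1 library.

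Member regions in all of one group and none of the other (7 over 4 comparisons) were 4 with the stricter q, 4 with the same number of peaks, 2 when peaks had to cover 50% of the region and 7 to 11 without 1 library. Neither GLUL loss with oxamate in parental cells was kept by these peak settings. With the stricter q, untreated parental libraries called the GLUL start region in 0 and the upstream GLUL region in 2. Of the regions named above, the one within SLC1A5 alone still split at that q, between treated and between untreated phenotypes. The share of all regions under these settings is not given. Member regions by phenotype (0 of 4 tested) were 1 of 3 with the stricter q, where 4.67% of 6568 regions passed, and 0 to 0 without 1 library.

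Same-numbered libraries did not deviate together (correlations from -0.18 to 0.19, 2 of 18 pairs over 0.1, 5 of 12 libraries closest to their own number), so the numbers were not taken to pair them. With a replicate block the fit called 1010 genes in the parental oxamate response and 0 between untreated phenotypes. It called 1 member and 5480 genes between treated phenotypes, and 3 members and 5241 genes over both treatments.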
